A study of Danio rerio with 6 samples.

Results

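Collagens are the main structural proteins of animal extracellular matrix. Each is a trimer whose chains wind into a triple helix built on a repeat of glycine and 2 other residues, and the trimers go on to form fibrils, sheets, networks or anchoring threads. In zebrafish larvae they are made by cartilage, notochord, skin, fin fold, muscle connective tissue and the mesenchyme around the gut. The collagen genes described here are the rows of the deposited count tables whose name matches a collagen chain pattern (col, a type number, a, a chain number) and whose counts sum to at least 30. A total of 56 of 32053 rows met both conditions, and 0 matching rows fell under the minimum. Of these, 2 rows (col4a3bpa and col4a3bpb) are not collagens: they encode ceramide transfer proteins whose old symbol names a binding partner of a type IV chain. The other 54 rows carry 52 names, since col6a3 and col19a1 each stand on 2 rows.

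Zebrafish embryos aged 5 days after fertilization were the source of RNA, taken by hand dissection from what is labelled intestinal tissue. The strain field reads only zebrafish, and the control titles read WT. Exposure was to 2 mg/L of BP-3, a code usually short for the sunscreen agent benzophenone-3 though not spelled out in the labels; its duration is not given there. There were 3 exposed and 3 control libraries. The treatment entry differs among the exposed libraries (BP-3 for replicate 1, BP-4 for replicate 2, BP-5 for replicate 3), but every exposed title and the protocol carry BP-3, so they were taken as 1 group. No label says whether libraries came from separate clutches or pools, so the p-values cover library-to-library spread only, which may be technical.

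Total counts lay between 23567603 and 41726516 per library. Depth fell with replicate number in both groups: 41726516, 34944023 and 24000785 in BP-3 and 36961866, 29123853 and 23567603 in control for replicates 1 to 3. The gut markers fabp2, vil1, cdx1b and cdh17 were present in all libraries, with means of 792, 183, 19.6 and 164 CPM (read counts scaled to a common library size with TMM factors) in control. Genes of other tissues were abundant beside them: 22 skeletal muscle markers summed to between 80863 and 95453 CPM and 16 epidermis markers to between 22257 and 26511 CPM over the 6 libraries. The collagens are therefore read in tissue that held more than gut. In bulk tissue, fewer cells of a type and less RNA per cell cannot be told apart. Both replicate 3 libraries stood apart from the others: replicate 3 was the highest library in both groups for 27 of 54 collagen rows (50.0%), against 21.3% of all 23167 rows tested. The cartilage link protein gene hapln1a was split the same way, with 24.2, 34.0 and 161 CPM over exposed replicates 1 to 3 and 17.8, 16.4 and 129 CPM over the controls in that order; it was called higher only with the replicate block (edgeR adjusted p = 0.00613) and without both replicate 3 libraries (0.00494) of the fits made.

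Exposure was tested with the quasi-likelihood test of edgeR, p-values were adjusted over all rows by the Benjamini-Hochberg method, and a row was called at an adjusted p under 0.05. Of the 56 matched rows, all of which were tested, 12 were called (21.4%), where 10.6% of all tested rows were called. The 9 called lower were 16.1% of the matched rows, where 4.29% of all rows were called lower. The 3 called higher were 5.36%, close to the 6.26% of all rows called higher. Abundant rows were called more often: among rows of mean CPM of at least 10, 6.63% were called lower and 8.75% higher, and among the 43 matched rows of that abundance 20.9% and 4.65%. The median log2 fold change of the 54 collagen rows was -0.10, and that of all tested rows was -0.00099. Changes were small. Among the 12 called genes the absolute log2 fold change ran from 0.22 to 0.65, and adjusted p-values from 0.00512 to 0.0488. Among the 54 collagen rows, every exposed library lay above every control in 7 and below in 19, where 16.1% of all tested rows were separate upward and 14.9% downward (31.0% in either direction).

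**Figure D1:**
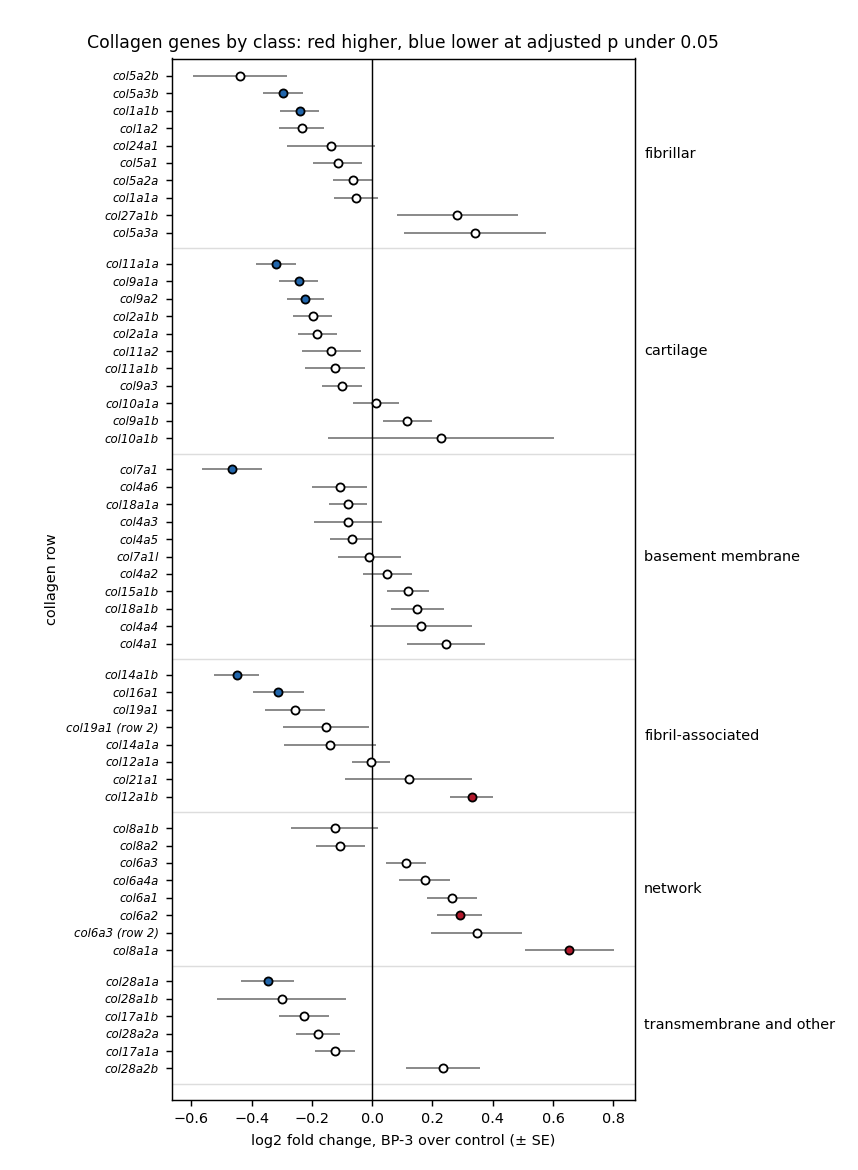
Log2 fold change of BP-3 over control (horizontal axis, bars are standard errors) for the 54 collagen rows, grouped by class on the vertical axis. Red points passed an adjusted p of 0.05 upward (3) and blue points downward (9); most fibrillar and cartilage rows lie left of 0, and 6 of 8 network rows lie right of it.

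The replicate 3 libraries of both groups deviated together (r = 0.333). They were also the shallowest libraries, and the part of depth in this deviation was not tested. Numbers 1 and 2 correlated about as much across (0.126 and 0.128) as within number (0.127 and 0.105). No label states a pairing, so a block on the replicate number is chosen from the data. The fit with that block is given as an alternative to the reported one. In that fit 20 of the 56 rows were called, 5 higher and 15 lower, with 21.7% of all rows called (11.9% higher and 9.84% lower). The 12 genes were among the 20, and those added were col1a2, col2a1a, col2a1b, col4a1, col5a2b, col6a1, col17a1a and col17a1b. Without both replicate 3 libraries 8 were called higher and 15 lower, with 16.7% of all rows called (9.18% higher and 7.47% lower), and the 12 genes were again among them. Leaving out replicate 1 or 2 of either group ended most of the calls: 2 rows were called without BP-3 replicate 1, 1 without BP-3 replicate 2, 4 without control replicate 1 (3 of them among the 12 genes) and 2 without control replicate 2, where between 4.67% and 5.45% of all rows were called. With BP-3 replicate 3 left out 9 were called (8 among the 12 genes; 9.48% of all rows called), and with control replicate 3 left out 15 (10 among the 12; 10.6% of all rows). Calls gained in those fits were col19a1 (lower) without BP-3 replicate 3, col5a2b (lower) without control replicate 1, and col4a1, col6a1, col6a4a, col27a1b and the second row of col6a3 (all higher) without control replicate 3. With BP-3 replicate 1 alone against the controls 0 of the 56 rows were called, with 1.82% of all rows called.

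Among network-forming collagens more genes were above than below control in the exposed libraries. They comprise type VI, which forms beaded microfilaments around cells, muscle fibres included, and type VIII, a short chain that builds lattices in subendothelial matrices and the cornea. Of 8 rows, 2 rose (25%) and 0 fell, where 6.26% of all rows rose and 4.29% fell. A log2 fold change above 0 was seen in 6 of the 8 rows, which carry 7 names, and in 11541 of all 23167 tested rows. The class median was 0.22. Their summed counts took 0.0809%, 0.0862% and 0.0930% of all counts in the exposed libraries and 0.0707%, 0.0706% and 0.0821% in the controls, in replicate order, which is used for all libraries from here on. Control replicate 3 lay above BP-3 replicate 1, so these shares overlapped. Within each replicate number, a pairing that no label states, the exposed library was higher. As shares of TMM-scaled libraries they were 0.0819%, 0.0863% and 0.0911% in BP-3 and 0.0720%, 0.0720% and 0.0799% in control. On that scale the groups did not overlap.

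The type VI chain gene col6a2 rose. Exposed libraries held 198, 209 and 226 CPM and controls 169, 168 and 182 CPM, with every exposed library above every control. Its log2 fold change was 0.29 ± 0.07 (SE, n = 3 per group; edgeR adjusted p = 0.0343). The gene col6a1, which encodes another chain of the same trimer, lay at 279.6, 300.2 and 324 CPM in the exposed libraries and 242, 237 and 273 CPM in the controls. These values did not overlap either, but the log2 fold change of 0.26 ± 0.08 (SE) missed the threshold (edgeR adjusted p = 0.0727) and passed with the replicate block (adjusted p = 0.00205). The gene also passed by DESeq2 (adjusted p = 0.0296) and without both replicate 3 libraries (edgeR adjusted p = 0.00442). Of the fits that left out 1 library, col6a1 passed only in that without control replicate 3 (edgeR adjusted p = 0.0273). Counts of col6a1 and col6a2 kept nearly the same ratio in every library, between 1.41 and 1.51. The ratio of col6a1 to the main row of col6a3 was separate, at 1.64, 1.64 and 1.75 in BP-3 and 1.47, 1.46 and 1.59 in control. The long chain gene col6a3 showed a log2 difference of 0.11 ± 0.07 (SE) on its main row and 0.35 ± 0.15 (SE) on its second, low row, and col6a4a, a chain related to type VI alpha-3, had 0.17 ± 0.08 (SE); none of these passed. All 5 type VI rows, with col6a3 counted on both its rows, were above 0, as were 11541 of all 23167 tested rows. For 3 of the 5 every exposed library was above every control, as in 16.1% of all rows. The call of col6a2 was lost when any single library other than control replicate 3 was left out, with adjusted p between 0.0520 and 0.130.

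Among type VIII genes, col8a1a had the largest fold change of all called collagens. In zebrafish this gene is known for its part in notochord and vertebral development. Its level was low, at 7.35, 6.85 and 5.80 CPM in BP-3 and 4.68, 4.304 and 3.72 CPM in control, and the groups were separate. It rose 1.57-fold (log2 0.65 ± 0.15, SE; edgeR adjusted p = 0.0211). Its duplicate col8a1b lay at 4.803, 4.67 and 3.999 CPM in the exposed libraries and 5.43, 4.55 and 4.75 CPM in the controls, which overlap, and col8a2 had a log2 fold change of -0.11 ± 0.08 (SE). The call of col8a1a was lost when BP-3 replicate 1 (adjusted p = 0.0888), BP-3 replicate 2 (0.0806) or control replicate 2 (0.0643) was left out.

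**Figure D2:**
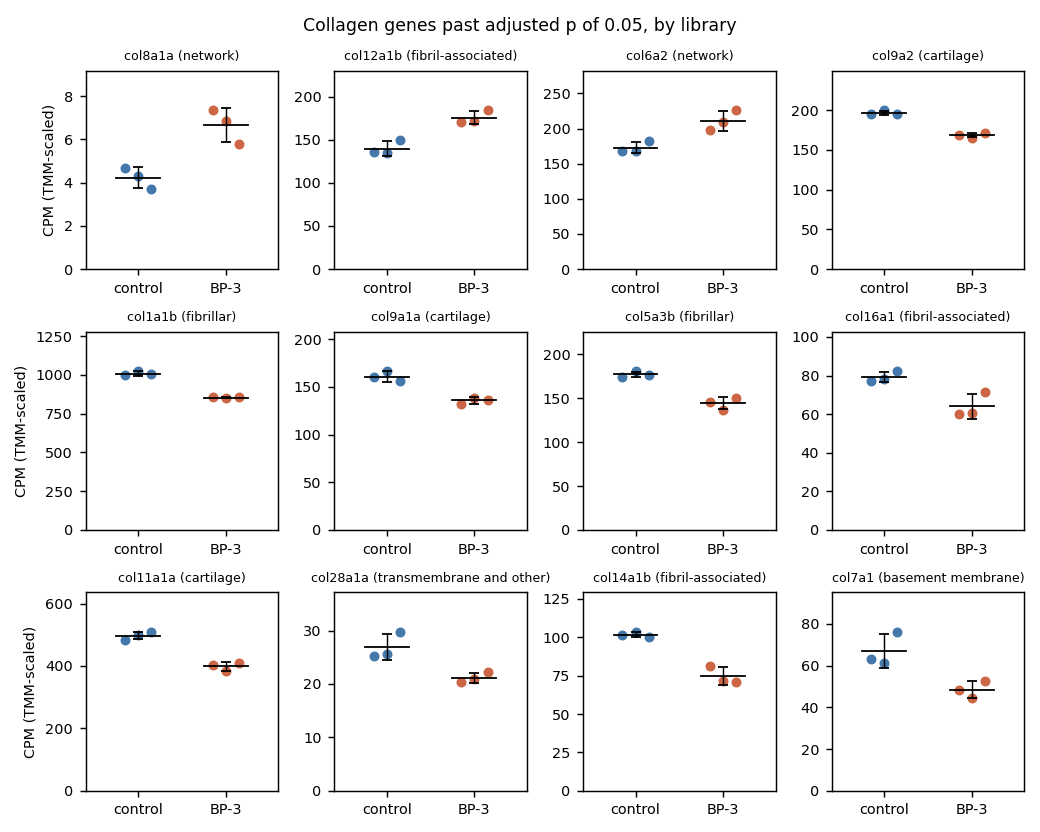
CPM (TMM-scaled, vertical axis from 0) of the 12 called collagen genes in each library, with points in replicate order, means as lines and SD as bars (n = 3 per group). col8a1a, col12a1b and col6a2 are higher in BP-3 and the other 9 lower, and in each panel the groups are separate.

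Cartilage collagens took a smaller share of counts in every exposed library than in any control. Cartilage fibrils are built on type II, with type XI at the core and type IX on the surface, and type X marks hypertrophic chondrocytes and, in zebrafish, also bone-forming cells. Type II is also a collagen of the notochord and its sheath. Of 11 rows 3 fell (27.3%) and 0 rose, where 4.29% and 6.26% of all rows did. The class median log2 fold change was -0.14, and in 6 rows every exposed library lay below every control, as in 14.9% of all rows. The class took 0.248%, 0.248% and 0.263% of counts in BP-3 and 0.276%, 0.281% and 0.298% in control, so the shares did not overlap, and the mean difference was -0.0323 percentage points.

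The type XI chain gene col11a1a fell most within the class. Its level was 403, 383 and 409 CPM in BP-3, against 485, 499 and 509 CPM in control, all exposed values being below all controls (log2 fold change -0.32 ± 0.07, SE; edgeR adjusted p = 0.0138). Its duplicate col11a1b had a log2 fold change of -0.12 ± 0.10 (SE), with groups that overlapped, and was not called (edgeR adjusted p = 0.487). The type IX chain gene col9a1a fell from 161 ± 5.32 to 136 ± 3.31 CPM (SD, n = 3; edgeR adjusted p = 0.0407). Its trimer partner col9a2 went from 197 ± 2.59 to 169 ± 2.99 CPM (SD, n = 3; edgeR adjusted p = 0.0488), while col9a3, which encodes the remaining chain, stayed uncalled (log2 fold change -0.10 ± 0.07, SE). These calls were fragile. The call of col11a1a was lost without BP-3 replicate 1 (adjusted p = 0.0503), BP-3 replicate 2 (0.0890), control replicate 1 (0.0514) or control replicate 2 (0.0604), and those of col9a1a and col9a2 held only without control replicate 3 among the 6 single-library omissions, the others giving between 0.0652 and 0.184. Both were also lost with no filter on low counts.

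Both type II genes were near the threshold. The main cartilage collagen gene col2a1a lay at 735, 727 and 726 CPM in the exposed libraries and 813, 826 and 845 CPM in the controls, and its duplicate col2a1b at 334, 332 and 345 CPM against 382, 394 and 383 CPM. In neither gene did the groups overlap. Their log2 fold changes were -0.18 ± 0.06 and -0.20 ± 0.06 (SE), with edgeR adjusted p of 0.104 and 0.0787, and with the replicate block 0.00496 and 0.00615. DESeq2 gave adjusted p of 0.0205 and 0.0152, and edgeR without both replicate 3 libraries gave 0.0145 and 0.00622. Neither type II gene was called with any 1 library left out (edgeR adjusted p between 0.0773 and 0.278). Neither type X nor the second chain of type XI was called: col10a1a stood at 257 ± 13.3 and 255 ± 17.4 CPM (SD, n = 3), and col11a2 at 149.9 ± 18.2 and 165 ± 13.8 CPM in BP-3 and control. Of 18 chondrocyte markers other than collagens, 2 rose (11.1%) and 0 fell, where 6.26% and 4.29% of all rows did. The 2 were matn3a and matn3b. With the replicate block hapln1a also rose and mia fell, where 11.9% of all rows rose and 9.84% fell. Summed levels were 1343 to 1481 CPM in BP-3 and 1293 to 1418 CPM in control. The chondrocyte regulator genes sox9a and sox9b had log2 fold changes of -0.11 ± 0.08 and 0.03 ± 0.07 (SE), and matn3b, a cartilage matrilin, rose from 7.64 ± 0.807 to 16.7 ± 1.50 CPM (SD, n = 3; edgeR adjusted p = 0.00035).

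The fibrillar class here holds types I, V, XXIV and XXVII, as types II and XI were placed with cartilage. Types I and V form the load-bearing fibrils of skin, tendon, bone and gut wall. Type I is the bulk of these fibrils and type V sets where they start and how thick they grow. Of 10 rows 2 fell (20%) and 0 rose, where 4.29% and 6.26% of all rows did. The class median was -0.13. The class took 0.436%, 0.432% and 0.465% of counts in BP-3 and 0.468%, 0.481% and 0.504% in control, with the highest exposed library just under the lowest control.

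Teleost type I collagen is assembled from 3 gene products, of which 1 was called. The gene col1a1a lay at 2097, 2038 and 2243 CPM in the exposed libraries and 2140, 2220 and 2260 CPM in the controls, which overlap (log2 fold change -0.05, 95% interval -0.22 to 0.11). The gene col1a1b, which the reference table also lists as the alpha-3 chain of type I, lay at 856, 850.4 and 854 CPM in the exposed libraries and 999, 1023 and 1002 CPM in the controls. It fell 1.18-fold, without overlap between the groups (edgeR adjusted p = 0.0417). The gene col1a2 lay at 675, 648 and 599.6 CPM against 757, 783 and 724 CPM. Its log2 fold change of -0.23 ± 0.07 (SE) nearly matched that of col1a1b (-0.24 ± 0.06, SE), did not pass (edgeR adjusted p = 0.0720), and passed with the replicate block (0.0020). DESeq2 (adjusted p = 0.0159) and edgeR without both replicate 3 libraries (0.00579) also called col1a2 lower. No fit that left out 1 library did (edgeR adjusted p between 0.0512 and 0.222). Of the single-library omissions, only that of control replicate 3 kept the call of col1a1b, and the others gave adjusted p between 0.0610 and 0.160.

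Among type V genes, col5a3b fell from 177 ± 3.26 to 144 ± 6.69 CPM (SD, n = 3; edgeR adjusted p = 0.0207). Its libraries lay at 146, 137 and 150.2 CPM in the exposed libraries and 175, 181 and 176 CPM in the controls, without overlap. Its low duplicate col5a3a had means of 3.26 and 2.54 CPM in BP-3 and control, with groups that overlapped. The log2 fold change of col5a3a was 0.34 ± 0.24 (SE) and was not called (edgeR adjusted p = 0.405). Neither col5a1 nor col5a2a, the main chain genes of the type, was called, with log2 fold changes of -0.11 ± 0.08 and -0.06 ± 0.06 (SE). The low gene col5a2b, at 7.74, 8.48 and 9.67 CPM in BP-3 and 9.28, 11.7 and 14.1 CPM in control, passed with the replicate block (adjusted p = 0.0144, against 0.108 without it) and without control replicate 1 (0.049). The call of col5a3b was lost without BP-3 replicate 1 (adjusted p = 0.0688), BP-3 replicate 2 (0.112), control replicate 1 (0.0713) or control replicate 2 (0.0865). The minor fibrillar genes col24a1 and col27a1b lay under 11 CPM in all libraries and were not called.

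**Figure D3:**
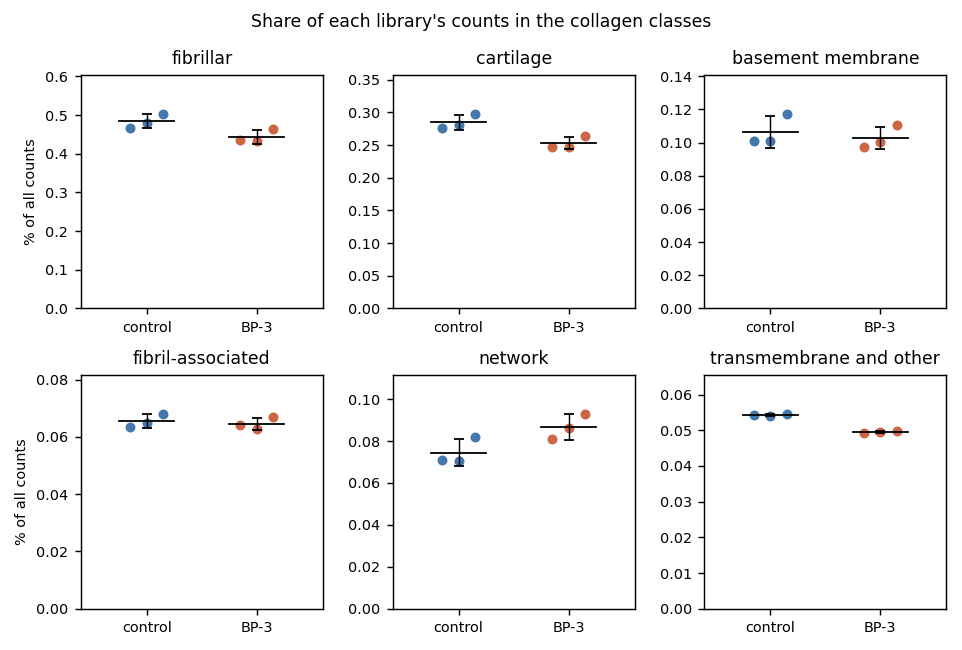
Share of all counts (percent, vertical axis from 0) taken by each collagen class in the 6 libraries, with points in replicate order, means as lines and SD as bars (n = 3 per group). The groups are separate for the fibrillar, cartilage, and transmembrane and other classes, with BP-3 lower, and overlap for the other 3 classes.

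Fibril-associated collagens sit on the surface of fibrils and link them to the surrounding matrix. They moved in both directions, with 1 of 8 rows higher (12.5%) and 2 lower (25%), where 6.26% and 4.29% of all rows were. The class took 0.0646% ± 0.00203 of counts in BP-3 and 0.0655% ± 0.00230 in control (SD, n = 3). The type XII gene col12a1b rose. Exposed libraries held 171, 172 and 184 CPM and controls 135, 135 and 149 CPM (log2 fold change 0.33 ± 0.07, SE; edgeR adjusted p = 0.0177). Its duplicate col12a1a stood at 285 ± 4.07 and 286 ± 4.62 CPM (SD, n = 3), a log2 difference of -0.0049 with a 95% interval of -0.14 to 0.13. The call of col12a1b was lost without BP-3 replicate 2 (adjusted p = 0.0639), control replicate 1 (0.0857) or control replicate 2 (0.0822).

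The type XIV gene col14a1b, whose family binds fibrils in skin and tendon, fell and had the smallest adjusted p of all collagens. Levels were 81.2, 71.2 and 70.9 CPM with exposure and 102, 103 and 100.2 CPM without, which do not overlap (log2 fold change -0.45 ± 0.08, SE; edgeR adjusted p = 0.00512). It was called in each of the 6 fits that left out 1 library, with adjusted p between 0.00762 and 0.0365, the only one of the 12 genes for which this held. The duplicate of col14a1b, col14a1a, had a log2 fold change of -0.14 ± 0.15 (SE). Its groups overlapped and it was not called (edgeR adjusted p = 0.616). The type XVI gene col16a1 fell from 79.3 ± 2.60 to 64.0 ± 6.66 CPM (SD, n = 3; edgeR adjusted p = 0.0433). Its libraries in BP-3 lay at 59.9, 60.4 and 71.7 CPM, with replicate 3 apart, and its call held only without BP-3 replicate 3 (adjusted p = 0.0111), the other 5 omissions giving between 0.0769 and 0.168. The type XIX gene col19a1, known in zebrafish for guiding motor axons, lay at 17.5 ± 2.22 CPM with exposure against 20.8 ± 0.357 CPM (SD, n = 3), and was not called (edgeR adjusted p = 0.132).

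Collagens of basement membranes, the thin sheets under epithelia and around muscle and vessels, had the class median nearest to 0. Of 11 rows 0 rose and 1 fell (9.09%), where 6.26% and 4.29% of all rows did. The median log2 fold change was -0.0098, and the class took 0.103% ± 0.00676 and 0.107% ± 0.00951 of counts in BP-3 and control (SD, n = 3). The gene that fell was col7a1, the chain of the anchoring fibrils that tie the skin's basement membrane to the dermis. Exposed libraries held 48.4, 44.2 and 52.6 CPM and controls 63.4, 61.2 and 76.1 CPM, without overlap. Its log2 fold change of -0.47 ± 0.10 (SE; edgeR adjusted p = 0.0164) was the largest decrease of all collagens. The related gene col7a1l stood at 27.96 ± 2.48 and 28.1 ± 3.48 CPM (SD, n = 3). The call of col7a1 was lost without BP-3 replicate 1 (adjusted p = 0.0623) or BP-3 replicate 2 (0.0820).

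Type IV collagen forms the sheet of every basement membrane, and its 6 genes stand as neighbouring pairs in the RefSeq gene order of zebrafish. In the widespread pair, col4a1 lay at 72.8, 75.1 and 92.1 CPM in the exposed libraries and 60.6, 60.3 and 81.5 CPM in the controls. Replicate 3 was the highest library in both groups, and the groups overlapped. The gene was not called (log2 fold change 0.25 ± 0.13, SE, edgeR adjusted p = 0.269). It was called with the replicate block (edgeR adjusted p = 0.0076) and without control replicate 3 (0.0382). Without BP-3 replicate 3 its log2 fold change was 0.13 (edgeR adjusted p = 0.564). Its neighbour col4a2 had 0.05 ± 0.08 (SE) and was called neither in the reported fit nor with the block. The pair col4a5 and col4a6 had -0.07 ± 0.07 and -0.11 ± 0.09 (SE), and col4a3 and col4a4 had -0.08 ± 0.11 and 0.16 ± 0.17 (SE), none called. The multiplexin genes, whose proteins carry the endostatin domain, also stayed under the threshold, with log2 fold changes of -0.08 ± 0.06 for col18a1a, 0.15 ± 0.09 for col18a1b and 0.12 ± 0.07 for col15a1b (SE). The only other neighbours among the matched collagen rows were col9a2 and col16a1, both of which fell. RefSeq held 8 more names of the collagen pattern, which were not looked at.

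The remaining rows hold type XVII, the transmembrane collagen of the hemidesmosomes that fasten basal epidermal cells, and type XXVIII, which shares von Willebrand domains with type VI. Of 6 rows 1 fell (16.7%) and 0 rose, where 4.29% and 6.26% of all rows did. Log2 fold changes were below 0 in 5 of the 6 rows, and in 11626 of all 23167 tested rows. The type XXVIII gene col28a1a fell from 26.9 ± 2.44 to 21.2 ± 0.903 CPM (SD, n = 3; edgeR adjusted p = 0.0323). Its call held only without BP-3 replicate 3 (adjusted p = 0.0374), the other 5 omissions giving between 0.0599 and 0.117. The type XVII genes col17a1a and col17a1b had log2 fold changes of -0.12 ± 0.07 and -0.23 ± 0.08 (SE), with groups that did not overlap and edgeR adjusted p of 0.277 and 0.121, and with the replicate block 0.0388 and 0.0347. Of 16 epidermis markers tested, 0 rose and 3 fell (18.75%), where 4.29% of all rows fell. With the replicate block 3 rose and 8 fell, where 11.9% and 9.84% of all rows did. Their summed level was 22257 to 23516 CPM in BP-3 and 24703 to 26511 CPM in control, without overlap. The most abundant of them was krt4, at means of 10101 and 11246 CPM, and 6 of the 16 had log2 fold changes above 0. The part of epidermal share in the lower levels of col7a1, col14a1b and col17a1b was not tested.

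Zebrafish keep duplicates of many collagen genes, and 14 duplicate pairs and 8 pairs of chains of the same type were compared as count ratios within each library, which do not depend on scaling between libraries. In 8 of the 22 ratios the groups did not overlap, where 31.0% of all tested rows did not overlap as single genes. No such share was made for ratios of other gene pairs. The ratio of col8a1a to col8a1b was 1.53, 1.47 and 1.45 in BP-3 and 0.863, 0.946 and 0.783 in control. That of col12a1b to col12a1a was 0.592, 0.604 and 0.657 against 0.481, 0.463 and 0.524. The ratio of col1a1a to col1a1b was 2.45, 2.397 and 2.63 in BP-3 and 2.14, 2.17 and 2.26 in control. That of col9a1a to col9a1b, lower with exposure, was 6.34, 6.18 and 6.10 in BP-3 and 8.37, 8.29 and 7.28 in control. Each had an exact two-sided permutation p of 0.10, the smallest that 3 against 3 libraries can give, and 0.275 after Benjamini-Hochberg adjustment over the 22 ratios.

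By contrast in values, the ratio of col1a1b to col1a2 was 1.27, 1.31 and 1.42 in BP-3 and 1.32, 1.31 and 1.38 in control (exact permutation p = 0.90). That of col2a1a to col2a1b lay between 2.096 and 2.21 in the 6 libraries (exact permutation p = 0.80), and that of col4a5 to col4a6 between 1.24 and 1.41 (exact permutation p = 0.50). Ratios of the duplicates of col5a3, col11a1, col14a1 and col28a1, each pair holding a called gene, gave exact permutation p of 0.20, 0.20, 0.20 and 0.90. All these ratios overlapped between groups, which does not show that they were equal.

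**Figure D4:**
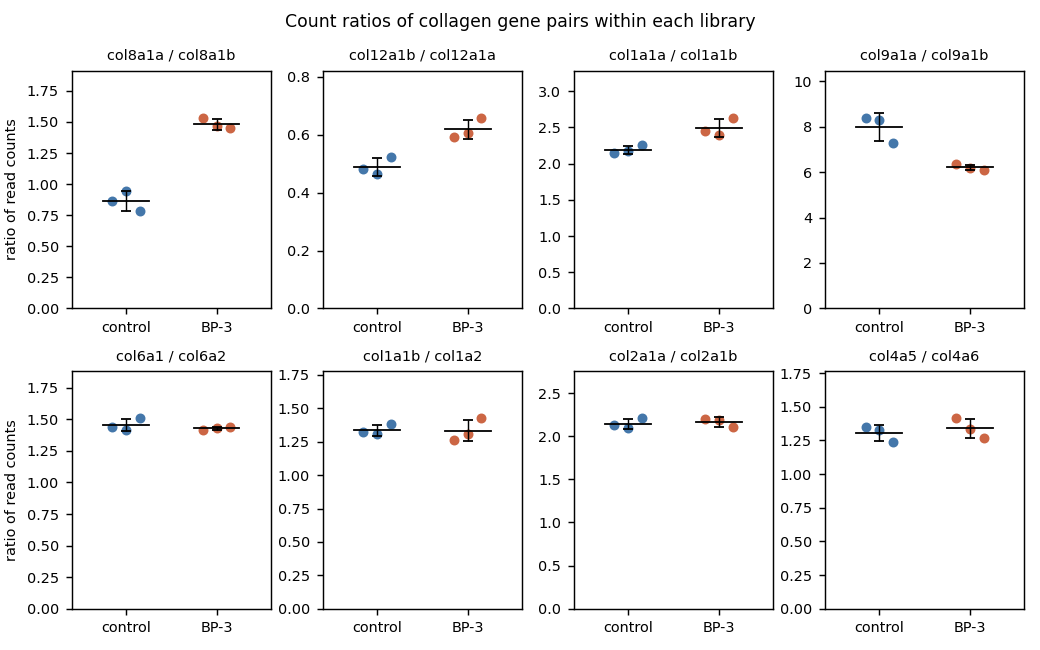
Ratio of read counts (vertical axis from 0) of 8 of the 22 collagen gene pairs in each library, with points in replicate order, means as lines and SD as bars (n = 3 per group). In the upper row the groups are separate (col8a1a to col8a1b near 1.5 in BP-3 and under 1 in control), and in the lower row they overlap.

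Making a collagen takes a dedicated set of enzymes and chaperones in the endoplasmic reticulum. Prolyl and lysyl hydroxylases modify the chains, Serpinh1 (Hsp47) and peptidyl-prolyl isomerases help them fold, and large COPII vesicles carry them out. Of 31 such genes tested, 11 rose (35.5%) and 1 fell, where 6.26% of all tested rows rose and 4.29% fell. The list's median log2 fold change was 0.18. With the replicate block 15 rose and 1 fell, where 11.9% and 9.84% of all rows did. The hydroxylase genes p4ha1b and p3h1 rose 1.63-fold and 1.41-fold, and p4hb, which encodes both a subunit of prolyl 4-hydroxylase and a general disulfide isomerase, rose from 118 ± 3.61 to 161 ± 9.78 CPM (SD, n = 3). The collagen chaperone gene serpinh1a lay at 61.7, 61.4 and 69.3 CPM in the exposed libraries and 49.1, 46.1 and 51.3 CPM in the controls and rose 1.31-fold. Its duplicate serpinh1b lay at 73.8, 56.5 and 47.1 CPM against 51.7, 42.2 and 30.9 CPM, which overlap, with the exposed library higher within each replicate number (a pairing that no label states). It was not called (edgeR adjusted p = 0.124), but was called higher with the replicate block (adjusted p = 0.000294), by DESeq2 (0.0428) and without both replicate 3 libraries (0.028). The isomerase genes ppib, fkbp7, fkbp10b and fkbp14 rose between 1.26-fold and 1.63-fold. In the fits that left out 1 library, fkbp7 was always called and fkbp14 never. The call of fkbp10b held only without BP-3 replicate 3 or control replicate 3. That of ppib was lost without BP-3 replicate 1 or 2, and that of serpinh1a without control replicate 1 or 2.

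The transport genes in this list were split. The coat genes sec13 and sec24d rose 1.54-fold and 1.37-fold, while sec23a, whose loss in zebrafish impairs collagen secretion, was 1.44-fold lower, at 30.1, 44.2 and 30.1 CPM in BP-3 and 49.2, 46.4 and 55.3 CPM in control (edgeR adjusted p = 0.0430). The lysyl hydroxylase genes plod1a, plod2 and plod3 had log2 fold changes of -0.04 ± 0.08, -0.02 ± 0.07 and 0.18 ± 0.10 (SE) and were not called, though plod3 was called higher with the replicate block (edgeR adjusted p = 0.0492). The adjusted p-values of the 12 called genes lay between 0.00144 and 0.0430 by edgeR. Several of them, among them pdia3, p4hb, sec13 and ppib, serve all secreted proteins and not collagen alone. Between 8 and 11 of the list rose when any 1 library was left out, and the call of sec23a held in 1 of those 6 fits, that without BP-3 replicate 2, and was lost without both replicate 3 libraries (adjusted p = 0.11).

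Outside the cell, procollagen is trimmed by proteases of the Bmp1 and Adamts families and crosslinked by lysyl oxidases. Of 21 such genes 0 were called in the reported fit, where 10.6% of all rows were. Of them 6 had an unadjusted p under 0.05, a count for which no share of all rows was made. By DESeq2 1 rose and by limma-voom 1, where 13.1% and 10.9% of all rows were called in either direction. Without BP-3 replicate 3, and also without control replicate 3, 2 rose, where 9.48% and 10.6% of all rows were called. With the replicate block 5 rose and 1 fell, where 11.9% and 9.84% of all rows did. Without both replicate 3 libraries 5 rose and 0 fell, where 9.18% and 7.47% of all rows did. The nearest to the threshold was pcolce2b, an enhancer of procollagen trimming, at 22.7 ± 1.85 and 18.1 ± 1.68 CPM in BP-3 and control (SD, n = 3; edgeR adjusted p = 0.0546). Among collagen-cutting metalloproteinases and their inhibitors 0 of 26 rose and 3 fell, namely mmp30 from 151 ± 1.31 to 109 ± 3.33 CPM, timp4.3 from 18.9 ± 0.991 to 12.4 ± 0.666 CPM and timp2a from 119 ± 2.03 to 98.2 ± 2.199 CPM (SD, n = 3). They are 1 protease and 2 inhibitors, and make 11.5% of the list, where 4.29% of all rows fell. With the replicate block 2 rose and 4 fell, where 11.9% and 9.84% of all rows did. Their edgeR adjusted p-values lay between 0.00155 and 0.0227, and between 2 and 3 of the list fell with any 1 library left out, while 2 rose without control replicate 3.

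**Figure D5:**
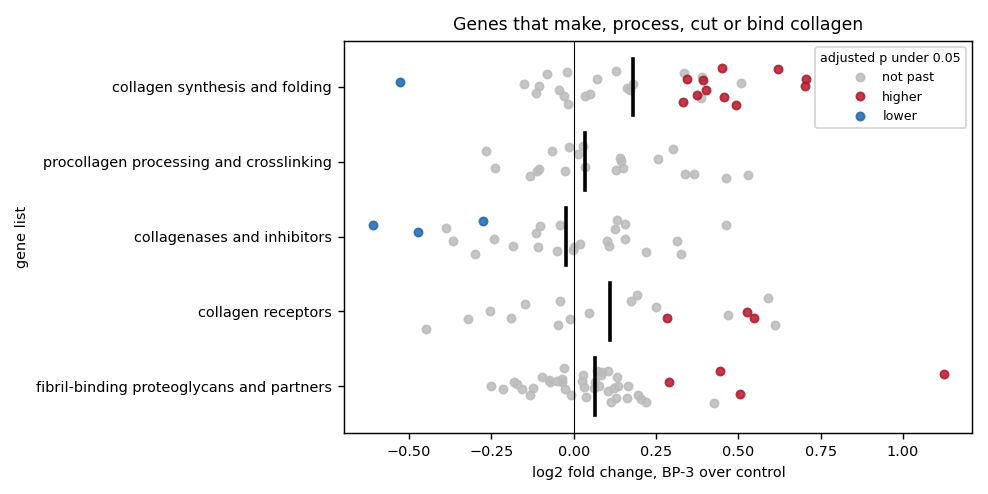
Log2 fold change of BP-3 over control (horizontal axis) for the tested genes of 5 lists around collagen (vertical axis, points spread for visibility), with list medians as black lines. Red and blue points passed an adjusted p of 0.05 upward and downward: 11 and 1 in the synthesis list, 0 in processing, 0 and 3 among collagenases and inhibitors, 3 and 0 among receptors, and 4 and 0 among fibril partners.

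Of 18 collagen receptor genes 5 rose and 1 fell with the replicate block, where 11.9% and 9.84% of all rows did. Without it 3 rose (16.7%) and 0 fell, where 6.26% and 4.29% of all rows did. They were mrc1a, a mannose receptor that also takes up denatured collagen, at 1.44-fold, the integrin gene itga2.2 at 1.46-fold, and itgb1b, which encodes the beta chain shared by collagen-binding integrins, at 1.22-fold. Their edgeR adjusted p-values were 0.00139, 0.0345 and 0.0470; of the list 1 rose without BP-3 replicate 2, BP-3 replicate 3, control replicate 1 or control replicate 2. The receptor kinase gene ddr1 lay at 54.5, 46.4 and 61.2 CPM in the exposed libraries and 63.8, 64.4 and 74.2 CPM in the controls and was not called (edgeR adjusted p = 0.0846). It is the receptor gene that fell with the replicate block (adjusted p = 0.00486), and was also called lower by DESeq2 (0.041), without BP-3 replicate 3 (0.0311) and without both replicate 3 libraries (0.0157).

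Among 43 proteoglycans, laminins and other fibril partners 7 rose and 2 fell with the replicate block, where 11.9% and 9.84% of all rows did. Without it 4 rose (9.30%) and 0 fell, where 6.26% and 4.29% of all rows did. They were the matrilin genes matn3a and matn3b, also counted among the chondrocyte markers, and the small leucine-rich proteoglycan genes aspn and ogna. The gene aspn rose from 30.4 ± 2.26 to 43.1 ± 3.41 CPM and ogna from 80.4 ± 4.71 to 98.3 ± 1.50 CPM (SD, n = 3; edgeR adjusted p = 0.0060 and 0.0277). Of the list 2 rose without BP-3 replicate 1, control replicate 1 or control replicate 2. The actinodins, which build the stiff fibres of the fin fold together with collagen, differed among themselves: and1 stood at 605 ± 20.4 and 142 ± 4.71 CPM, and2 at 1132 ± 37.6 and 909 ± 75.0 CPM, and and3 at 231 ± 15.5 and 223 ± 11.6 CPM in BP-3 and control (SD, n = 3), the first 2 called higher. The call of and2 was lost without any 1 of replicates 1 and 2 of either group.

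Markers of tissues that make collagen moved as follows, where 6.26% of all rows rose and 4.29% fell (11.9% and 9.84% with the replicate block). Of 11 osteoblast and 18 tendon and fibroblast markers tested, 0 were called in the reported fit, and 0 had an unadjusted p under 0.05. The summed levels of both lists overlapped between the groups. With the replicate block, and also without both replicate 3 libraries, 1 osteoblast marker (phex) was called lower. Notochord markers had 2 of 11 higher, matn3a and cmn, (0 without BP-3 replicate 1, control replicate 1 or control replicate 2), and summed levels of 599.7 to 625 CPM in BP-3 and 565 to 600.3 CPM in control. Visceral smooth muscle markers had 3 of 13 higher and 0 lower (7 and 1 with the replicate block) and summed to 692 to 750.0 CPM in BP-3 and 625 to 680.1 CPM in control, without overlap. Skeletal muscle markers had 0 of 22 higher and 1 lower (3 and 9 with the replicate block), with summed levels that overlapped. Enterocyte markers had 9 of 19 higher and 1 lower (13 and 1 with the replicate block) and summed to 11184 to 11470 CPM against 7332 to 8096 CPM. The part of these tissue differences in the collagen results was not tested.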

How the data were processed

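For every library the authors deposited whole-number counts of reads by gene name, which show no normalization. Which aligner, counter and annotation were used, and whether strand was, is not given in the sources used here. Per the submitters' processing notes the build was mm9, a mouse build, though the row names are zebrafish symbols, so no coordinates are given. Of 54 matched names, 52 had a RefSeq symbol (GRCz12tu), used for gene order only. Repeated names were kept as separate rows for collagens and taken from the row of highest total for lists.

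Rows were filtered with filterByExpr (23167 of 32053 kept), scaled with TMM and tested with edgeR 4.0.16 in R 4.3.3 (glmQLFit, glmQLFTest, no covariates), with library sizes from the kept rows. CPM values use the TMM factors, and levels depend on gene length, so they are compared within a gene only. Of same-numbered libraries, only those of number 3 stood apart as a pair (r = 0.127, 0.105 and 0.333 for numbers 1 to 3). Numbers 1 and 2 correlated about as much across (0.126 and 0.128). The pairing is read from the data and is not stated in the labels. Alternatives were DESeq2 1.42.0, limma-voom (limma 3.58.1), other scaling and filters, the block, and libraries left out. Figures used matplotlib 3.10.9 in Python 3.11.15.

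Collagens were classed by type number: fibrillar I, V, XXIV and XXVII; cartilage II, IX, X and XI; basement membrane IV, VII, XV and XVIII; fibril-associated XII, XIV, XVI, XIX and XXI; network VI and VIII; the rest XVII and XXVIII. Named collagens are all that were called, the 3 most abundant of each class and a fixed panel; of other lists, the 4 with the smallest adjusted p, and others chosen after their values were seen (among them hapln1a, sox9a, sox9b, krt4, serpinh1b, ddr1, the plod genes and low or duplicate collagens). Members, classes and lists were chosen with earlier results of these data known.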

Additional observations from a re-analysis of the deposited data

How the results depend on the processing

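The replicate block raised the rows called to 2747 higher and 2279 lower, and the matched collagen rows to 5 and 15; it ended no call of the 12 collagen genes. With BP-3 replicate 1, the exposed library whose treatment entry reads BP-3, set alone against the controls (assuming it varies like them), 293 rows were called higher and 142 lower, and 0 and 0 collagen rows. Without both replicate 3 libraries 1747 rows were called lower, and 8 collagen rows higher and 15 lower. Leaving out 1 library gave 696 to 1448 rows higher, 388 to 1046 lower, 0 to 8 collagen rows higher and 1 to 7 lower. DESeq2 called 4 collagen rows higher and 12 lower, those added being col6a1 (higher) and col1a2, col2a1a and col2a1b (lower). With no filter on low counts 3 and 7 were called. The other scalings, the stricter filter, limma-voom and a member minimum of 300 counts left 3 and 9. The share of the transmembrane and other class differed by -0.00512 percentage points on TMM-scaled libraries, against -0.00483. All 12 called collagens kept their direction in the 15 alternatives, but their groups did not overlap, so leaving out libraries could hardly turn it. The log2 sign turned for 9 named genes, none called in the reported fit. With BP-3 replicate 1 alone col12a1a had 0.017, col24a1 0.053 and hapln1a -1.15; without both replicate 3 libraries col12a1a had 0.0054, col7a1l 0.0044 and and3 -0.012. With 1 library left out col12a1a ran from -0.016 to 0.0078, col10a1a from -0.039 to 0.058, col4a3 from -0.14 to 0.0067, col7a1l from -0.10 to 0.069, cdx1b from -0.17 to 0.070, plod2 from -0.057 to 0.025, and hapln1a from -0.89 to 2.08. Over 119 named genes, 1525 values kept direction and side, 151 lost and 86 gained the threshold, and 21 turned sign. The cause of these changes was not tested. These counts, and the 9 genes whose sign turned, leave out the duplicates col5a3a, col11a1b, col14a1a and col28a1b. The SE of hapln1a, 0.84, was wide although its level was not low.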
